A study of Mus musculus with 12 samples.

Results

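The genes described here are 10 amino acid transporters of the plasma membrane, *Slc7a1*, *Slc7a5*, *Slc7a11*, *Slc3a2*, *Slc1a4*, *Slc1a5*, *Slc38a1*, *Slc38a2*, *Slc6a9* and *Slc43a1*, out of 46078 genes in the count table. They were chosen by name and found through their gene identifiers, and all 10 were found. RNA-seq had been performed on mouse hematopoietic stem and progenitor cells (HSPCs) of the C57BL/6 strain, taken from bone marrow as LSK cells (lineage-, Sca-1+, c-Kit+; the labels also write KSL) and infected with a lentivirus that carries GFP and an shRNA. The shRNA was directed against *Rad21* (shRad21), which encodes a subunit of the cohesin ring, or against luciferase (shLuci) as the control. The cultured cells were sorted as GFP+CD48-Sca-1+ at 3 d after they had been isolated and infected. In the in vivo experiment, infected cells had been transplanted into lethally irradiated mice, and GFP+ LSK cells were reisolated 3 mo after transplantation according to the labels, while the study's text gives a later time. Each of the 4 groups had 3 libraries. Donor age is not given in the labels, and the sources used here do not say whether libraries of a group came from separate mice or cultures, so that p-values measure only the spread between these libraries, which may be technical.

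Amino acids enter cells through transporters that differ in the substrates they take and in the ions or amino acids they exchange for them. SLC7A5 (LAT1) imports leucine and other large neutral amino acids in exchange for intracellular ones, and it reaches the cell surface as a heterodimer with the heavy chain SLC3A2 (4F2hc, CD98). SLC7A11 (xCT) uses the same heavy chain and exchanges glutamate for cystine, the precursor for glutathione. Several of these genes are known targets of ATF4, a transcription factor whose translation rises when amino acids are scarce, and leucine taken up by LAT1 is sensed by the mTORC1 kinase complex.

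The libraries had between 15235129 and 29846689 counts. CPM is the count of a gene relative to the scaled total of its library, and 3 counts corresponded to between 0.107 and 0.211 CPM. This limit covers counting error alone, since the reads carried no molecular identifiers and copies of 1 molecule can be counted repeatedly. *Rad21* itself had 403 ± 17.7 CPM in shLuci and 140 ± 13.0 CPM in shRad21 cells in culture, and 122 ± 3.81 and 44.9 ± 2.40 CPM in vivo (mean ± SD, n = 3 each), without overlap. The 11 LSK and stem cell markers together ranged from 3187 to 3579 CPM over the libraries in culture. In vivo they ranged from 4448 to 4798 CPM. *Kit*, which encodes the c-Kit receptor of the LSK gate, had between 677 and 828 CPM in shLuci and between 266 and 293 CPM in shRad21 cells in culture. The cultured cells were sorted before sequencing as GFP+CD48-Sca-1+, which does not name c-Kit. At an adjusted p under 0.05 (edgeR's quasi-likelihood test), 6 of the 11 markers were higher with shRad21 in culture and 2, *Kit* among them, lower. Over all genes tested there, 6.18% were higher and 8.06% lower by the same test. Culture and in vivo libraries were made with different kits, gates and sequencing lanes, so the setting, the kit and the gate cannot be told apart. CPM values above and below are scaled with the TMM factors of all 12 libraries, and fold changes are on the log2 scale.

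The experiments were made to look for pathways that might bear on the selection of *Rad21*-deficient HSPCs under stress, and the culture experiment compared shRad21 with shLuci cells activated in culture. In culture, 6 of the 10 transporters were called lower in shRad21 than in shLuci cells and none was called higher at an adjusted p under 0.05 (edgeR's quasi-likelihood test over 15543 genes). *Slc7a11*, *Slc1a4* and *Slc7a5* fell the furthest, to between 31.1% and 51.3% of the shLuci mean, and *Slc7a1*, *Slc3a2* and *Slc1a5* fell to between 68.6% and 77.9%. Of all genes tested, 14.2% were called, 8.06% lower and 6.18% higher. Libraries of shRad21 and shLuci cells did not overlap for 7 of these 10 transporters (6 lower and 1 higher), and for 31.5% of all genes tested (16.2% lower and 15.3% higher). At an unadjusted p under 0.05, 1 transporter was higher, and DESeq2 called 1 higher. The median log2 fold change of the 10 genes was -0.44, beside -0.004 over all genes tested. The list was drawn up with results of these libraries in view, and which comparison was used is not recorded, so these counts and p-values describe the 10 genes and are no independent support for their direction. All 10 genes passed the filter on low counts in each comparison.

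**Figure D1:**
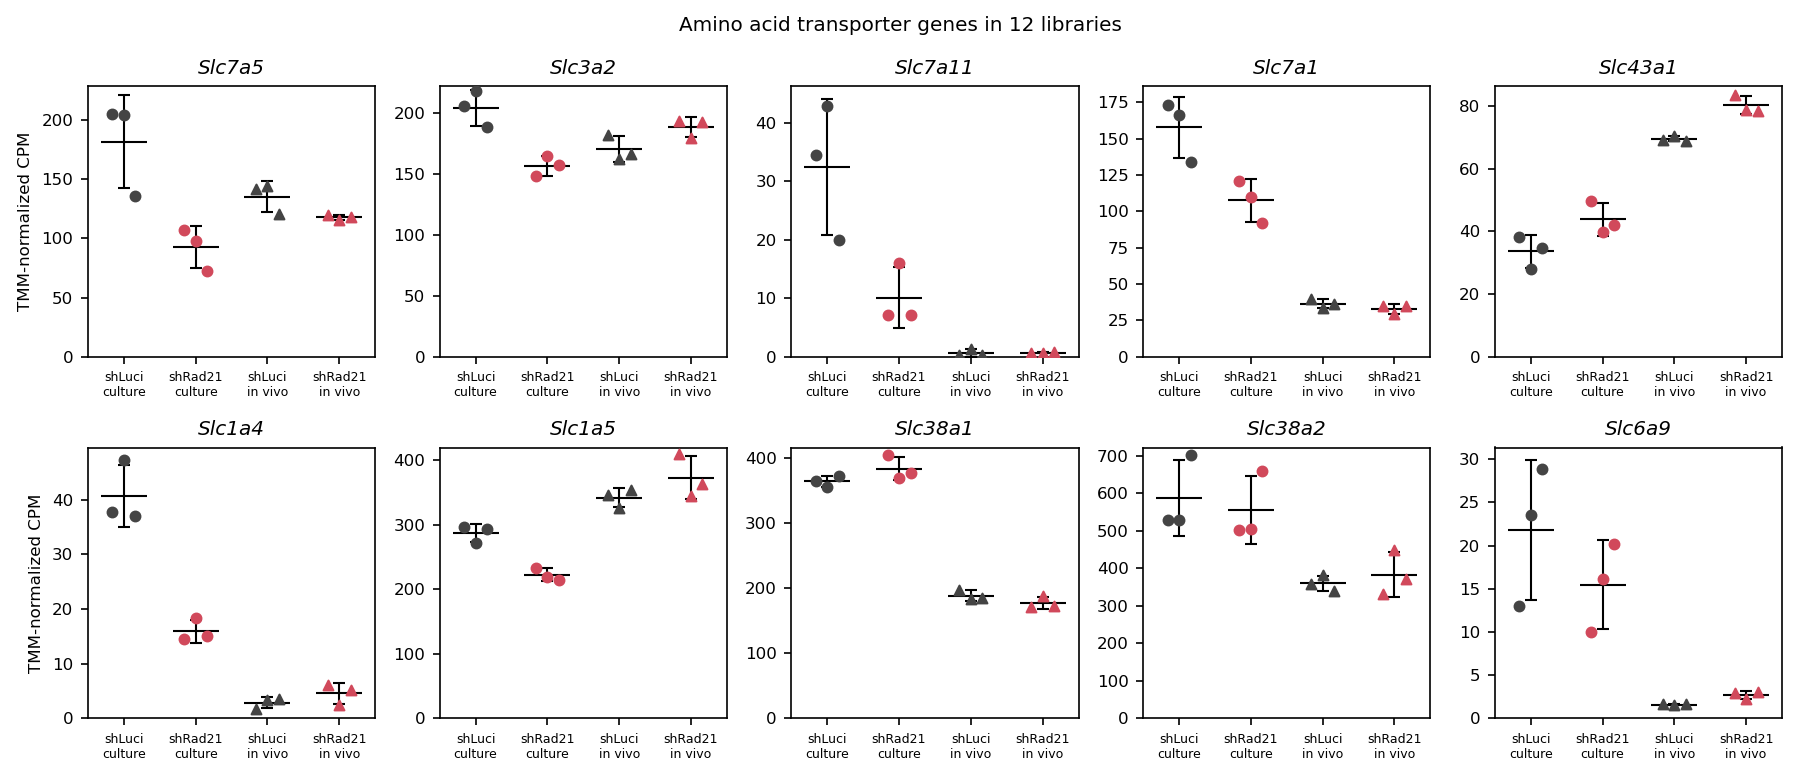
TMM-normalized CPM (y axis, linear, from 0) of the 10 transporter genes in each of the 12 libraries. Points are libraries in order of replicate number (shLuci grey, shRad21 red, culture circles, in vivo triangles), and bars give the mean and SD of 3 libraries. *Slc7a11*, *Slc1a4* and *Slc6a9* are near the bottom of their axes in vivo, and the shRad21 points of *Slc7a5*, *Slc7a11* and *Slc1a4* in culture lie below all shLuci points in culture.

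The 2 subunits of the LAT1 transporter were both lower in culture. *Slc7a5*, the light chain that carries the substrate, had 205, 204 and 136 CPM in the shLuci libraries 1 to 3 and 108, 98.2 and 72.9 CPM in the shRad21 libraries. The lowest shLuci library and the lowest shRad21 library carried the same replicate number, 3, and the groups did not overlap. The log2 fold change was -0.96 ± 0.17 (SE; adjusted p = 0.00346). *Slc3a2*, the heavy chain, had 206, 218 and 189 CPM in shLuci and 148, 165 and 157 CPM in shRad21 libraries. Its groups did not overlap either, and the log2 fold change was -0.37 ± 0.08 (adjusted p = 0.0115), smaller than that of the light chain. The *Slc3a2* call was lost without shLuci culture replicate 2 (adjusted p = 0.0566), shRad21 culture replicate 1 (0.0600) or shRad21 culture replicate 3 (0.0525). Its log2 fold change lay between -0.43 and -0.32 when libraries were left out in turn.

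*Slc43a1*, which encodes LAT3, a transporter of branched-chain amino acids that needs no heavy chain, lay in the other direction. It had 38.2, 28.0 and 34.6 CPM in shLuci and 49.8, 39.7 and 41.9 CPM in shRad21 libraries in culture. Each shRad21 library was above each shLuci library. The log2 difference was 0.39 ± 0.13 with an adjusted p of 0.0642. Libraries with the same replicate number deviated together in culture, and with the replicate number as a block the same difference had an adjusted p of 0.00541. *Slc43a1* was also past the threshold without shLuci culture replicate 1 (adjusted p = 0.0382).

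*Slc7a11* had the largest fold change of the 10 genes in culture. The shLuci libraries had 34.5, 42.9 and 19.9 CPM, and the shRad21 libraries had 7.21, 16.1 and 7.08 CPM. The highest shRad21 library was below the lowest shLuci library. The log2 fold change was -1.69 ± 0.33 (adjusted p = 0.0061), and it ranged from -2.17 to -1.42 when libraries were left out in turn.

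*Slc1a4* and *Slc1a5* encode ASCT1 and ASCT2, sodium-dependent exchangers of small neutral amino acids, of which ASCT2 is a main route for glutamine. *Slc1a4* had 37.8, 47.3 and 37.1 CPM in shLuci and 14.5, 18.3 and 15.1 CPM in shRad21 libraries in culture. The groups were far apart relative to their spread, with a log2 fold change of -1.35 ± 0.13 (adjusted p = 0.000122). *Slc1a5* had 297, 271 and 294 CPM in shLuci and 234, 219 and 215 CPM in shRad21 libraries, again without overlap. Its log2 fold change was -0.36 ± 0.08 (adjusted p = 0.00933), and the adjusted p rose to 0.0596 without shRad21 culture replicate 2 and to 0.0560 without shRad21 culture replicate 3.

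*Slc7a1* encodes CAT1, the carrier for arginine and lysine. It had 173, 166 and 134 CPM in shLuci and 121, 110.0 and 92.0 CPM in shRad21 libraries in culture, and the lowest library of each group was again replicate 3. The groups did not overlap, and the log2 fold change was -0.54 ± 0.12 (adjusted p = 0.0114). Without shLuci culture replicate 2 the adjusted p was 0.0587.

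The sodium-coupled transporters of the SLC38 family had the narrowest differences. *Slc38a1*, which encodes the glutamine transporter SNAT1, had between 355 and 373 CPM in shLuci and between 370 and 404 CPM in shRad21 libraries in culture, with a log2 difference of 0.08 (95% confidence interval -0.08 to 0.25, adjusted p = 0.536). *Slc38a2*, which encodes SNAT2, a carrier that cells induce when amino acids are scarce, had 528, 528 and 702 CPM in shLuci and 501, 503 and 659 CPM in shRad21 libraries. Replicate 3 was the highest library in both groups, and the groups overlapped. The log2 difference was -0.07 (95% confidence interval -0.37 to 0.23, adjusted p = 0.800). *Slc38a1* and *Slc38a2* are neighbors on chromosome 15 and lie on the same strand (96571418 to 96642913 and 96687392 to 96699730, GRCm38).

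*Slc6a9* encodes GLYT1, a glycine transporter. It had 13.0, 23.6 and 28.9 CPM in shLuci and 9.98, 16.2 and 20.2 CPM in shRad21 libraries in culture. The groups overlapped, but within each replicate number the shRad21 library was lower, by between 0.38 and 0.54 on the log2 scale. The log2 difference was -0.50 ± 0.28 (adjusted p = 0.297), and with the replicate number as a block it was -0.48 with an adjusted p of 0.00385. Of the exonic bases of *Slc6a9*, 30.2% overlap genes on the other strand (*B4galt2*, *Ccdc24* and *Gm17114*), and reads from those genes cannot be told apart from reads of *Slc6a9* where the counting did not use strand. No exonic bases of the other 9 genes overlap another gene.

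Promoter sequences are shown because *Slc7a11* and *Slc1a4*, which fell the furthest of the 10 genes in culture, share a short element near their start sites, which genes that did not fall carry too. ATF4 with a partner of the C/EBP family is known to bind the element TTGCATCA, which reads TGATGCAA on the other strand. RefSeq promoter windows (250 bases before to 50 after the start of transcription, GRCm38.p6) were at hand for 7 of the 10 genes, all except *Slc7a5*, *Slc1a5* and *Slc38a1*. The element was found on either strand in 2 of these 7, *Slc7a11* and *Slc1a4*, and in 1.03% of all 27025 genes with a window. *Slc7a11* had 2 copies, which start 66 and 47 bases before the start of transcription, and *Slc1a4* had 1 copy, which spans the start from 4 bases before it. The same element was present in *Chac1* and *Pycr1*, which fell in culture, and in *Nupr1*, which rose in culture and in vivo (these ATF4 targets are described below). It was also present in the transporter *Slc7a7*, which was not called in culture (log2 difference 0.22, adjusted p = 0.322) and was called higher in vivo. The element thus occurred in genes that moved in either direction or were not called. The *Slc38a2* promoter is printed as one without it in this window. Sequence outside the windows, such as introns, was not searched, so the gene may carry the element elsewhere. The stretches run 5′ to 3′ on the strand of the gene, the element is in capitals, and a match of letters is a description and not a site shown to be bound.
Slc7a11: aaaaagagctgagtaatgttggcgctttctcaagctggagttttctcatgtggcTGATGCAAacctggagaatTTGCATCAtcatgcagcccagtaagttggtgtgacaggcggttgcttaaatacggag
Slc1a4: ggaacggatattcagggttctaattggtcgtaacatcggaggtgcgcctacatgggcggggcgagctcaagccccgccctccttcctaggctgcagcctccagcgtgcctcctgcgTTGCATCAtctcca
Chac1: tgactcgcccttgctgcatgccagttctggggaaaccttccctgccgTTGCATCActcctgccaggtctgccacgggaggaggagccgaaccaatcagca
Pycr1: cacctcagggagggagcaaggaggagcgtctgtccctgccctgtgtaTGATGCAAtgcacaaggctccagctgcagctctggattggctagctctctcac
Nupr1: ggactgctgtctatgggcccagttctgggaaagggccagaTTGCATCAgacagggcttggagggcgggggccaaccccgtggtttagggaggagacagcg
Slc38a2: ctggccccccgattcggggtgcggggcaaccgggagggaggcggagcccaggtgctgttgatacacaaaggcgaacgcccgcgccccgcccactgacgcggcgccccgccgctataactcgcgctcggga

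The stretches of *Slc7a11* (chr3:50443604-50443733, minus strand), *Slc1a4* (chr11:20332704-20332833, minus strand) and *Slc38a2* (chr15:96699719-96699848, minus strand) run from 120 bases before the start to 10 bases past it. That of *Chac1* (chr2:119351002-119351101, plus strand) runs from 240 to 141 bases before the start, and those of *Pycr1* (chr11:120643799-120643898, minus strand) and *Nupr1* (chr7:126625521-126625620, minus strand) from 150 to 51 bases before it. The looser form TGATGNAA, which includes TGATGCAA, was searched on both strands too, and was found in the same 2 transporters and in 4.51% of all genes with a window. The NRF2 type element TGACNNNGC was found in *Slc7a1*, *Slc38a2*, *Slc6a9* and *Slc43a1* and in 14.0% of all genes with a window, and the E-box CACGTG, a letter sequence that MYC and MAX can bind, was found in *Slc43a1* and in 8.09% of them. No promoter of these 10 genes was measured for binding here.

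The in vivo experiment made the same comparison in cells that had repopulated irradiated mice. There, 1 of the 10 transporters was called higher and none lower, while 11.0% of all 15938 genes tested were called, 5.65% higher and 5.32% lower. Libraries of shRad21 and shLuci did not overlap for 3 of these 10 transporters (2 higher and 1 lower), and for 29.1% of all genes tested (13.3% higher and 15.8% lower). The called gene was *Slc43a1*, at 69.2, 70.3 and 68.9 CPM in shLuci and 83.6, 78.8 and 78.3 CPM in shRad21 libraries. The groups did not overlap, and the log2 fold change was 0.22 ± 0.06 (adjusted p = 0.0485). The call was lost when any 1 of the 6 libraries was left out (adjusted p between 0.0749 and 0.135), under a stricter filter of 10 counts in each library (0.0560), and in 1 model of all 12 libraries (0.247). At an unadjusted p under 0.05, 1 transporter (*Slc7a5*) was lower, and DESeq2 called none lower. The median log2 fold change of the 10 genes in vivo was 0.12, beside -0.002 over all genes tested.

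None of the genes that had fallen in culture was called in vivo, and the direction of their differences varied. *Slc7a5* had 142, 144 and 120.3 CPM in shLuci and 119.8, 116 and 118 CPM in shRad21 libraries, which lay just below each shLuci library. Its log2 difference was -0.18 (95% confidence interval -0.36 to -0.01, adjusted p = 0.192), and the adjusted p was 0.0400 without shLuci in vivo replicate 3. *Slc3a2* had 182, 162 and 166 CPM in shLuci and 194, 179 and 193 CPM in shRad21 libraries, with overlap and a log2 difference of 0.16 (95% confidence interval 0.02 to 0.31, adjusted p = 0.150).

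*Slc1a5* had 346, 325 and 354 CPM in shLuci and 409.8, 345 and 363 CPM in shRad21 libraries in vivo, and its log2 difference was 0.14 (adjusted p = 0.259). *Slc1a4* was at a low level in vivo, with 1.78, 3.33 and 3.49 CPM in shLuci and 6.14, 2.47 and 5.18 CPM in shRad21 libraries. The groups overlapped, and the log2 difference was 0.69 with a confidence interval from -0.13 to 1.51 (adjusted p = 0.292). *Slc7a11* had between 7 and 28 counts per shLuci library and between 14 and 17 per shRad21 library, which left its log2 difference of 0.09 with a confidence interval from -1.29 to 1.47 (adjusted p = 0.955). Without shLuci in vivo replicate 2, which held the 28 counts, the difference was 1.19.

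*Slc6a9* had 1.60, 1.51 and 1.68 CPM in shLuci and 2.88, 2.20 and 3.06 CPM in shRad21 libraries in vivo. All 3 shRad21 libraries were higher, with a log2 difference of 0.78 ± 0.25 (adjusted p = 0.0866). *Slc7a1* ranged from 33.4 to 39.9 CPM in shLuci and from 29.3 to 34.9 CPM in shRad21 libraries (log2 difference -0.13, adjusted p = 0.510). *Slc38a1* ranged from 183 to 198 CPM and from 170.4 to 188 CPM (log2 difference -0.07, adjusted p = 0.569), and *Slc38a2* from 339 to 381 CPM and from 329.9 to 448 CPM (log2 difference 0.11, adjusted p = 0.614). These groups overlapped.

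**Figure D2:**
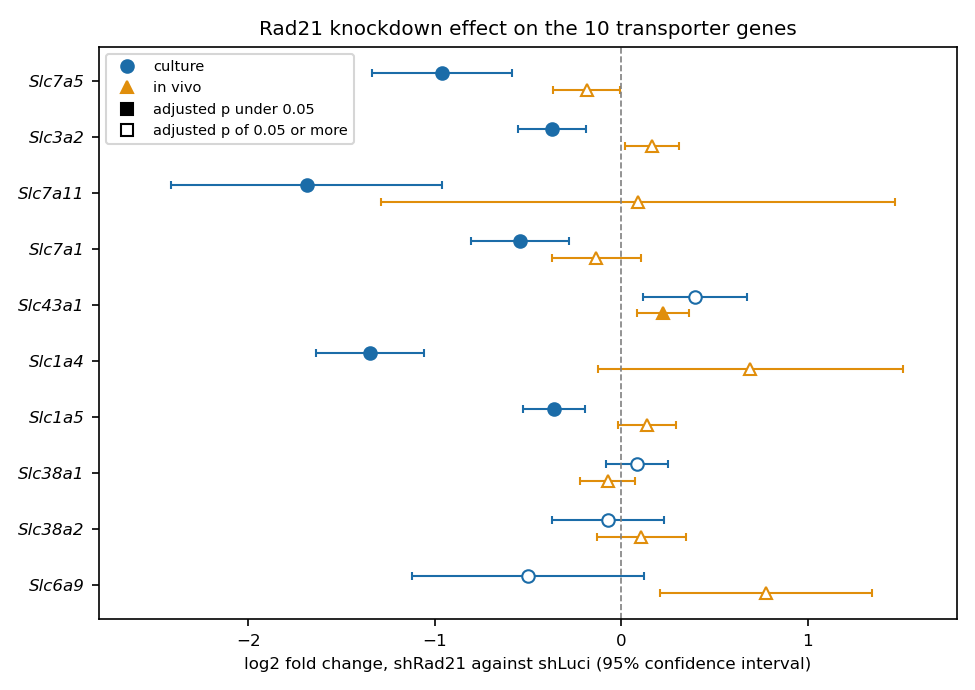
Log2 fold change of shRad21 against shLuci cells (x axis) for each of the 10 genes, in culture (blue circles) and in vivo (orange triangles). Bars are 95% confidence intervals from edgeR, and filled symbols mark an adjusted p under 0.05. The 6 filled circles lie below 0, the filled triangle is *Slc43a1* at 0.22, and the interval of *Slc7a11* in vivo runs from -1.29 to 1.47.

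Whether the knockdown effect differed between settings was tested as the interaction of knockdown and setting in 1 model of the 12 libraries, as the log2 fold change in culture minus that in vivo. Of the 10 genes, 3 were called with a lower value in culture and none with a higher one, while 4.67% of all 17050 genes tested were called, 3.03% lower and 1.64% higher. No transporter was higher at an unadjusted p under 0.05 or by DESeq2. *Slc1a4* differed by -2.04 ± 0.38 (adjusted p = 0.00662), *Slc3a2* by -0.53 ± 0.11 (adjusted p = 0.00913) and *Slc1a5* by -0.49 ± 0.11 (adjusted p = 0.0147). These 3 differences stayed past the threshold in all 18 alternative fits, with adjusted p-values of at most 0.0345 for *Slc3a2*, 0.0242 for *Slc1a4* and 0.0442 for *Slc1a5*.

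For *Slc7a5* the difference between settings was -0.77 ± 0.21 (adjusted p = 0.0546), and with the replicate number as a block its adjusted p was 0.0019. With the block, the adjusted p was also under the threshold for *Slc6a9* (-1.24, adjusted p = 0.00586, beside 0.120 without the block) and *Slc7a1* (-0.40, adjusted p = 0.0402, beside 0.224). The adjusted p of *Slc7a5* was also 0.00763 without shLuci culture replicate 3 and 0.0465 without shRad21 culture replicate 1, and that of *Slc6a9* was 0.0314 without shLuci culture replicate 1. *Slc7a11* had a difference of -1.79 with a confidence interval from -3.38 to -0.20 (adjusted p = 0.216), and it was -2.85 without shLuci in vivo replicate 2. The differences of *Slc38a1* (0.17), *Slc38a2* (-0.17) and *Slc43a1* (0.18) had confidence intervals that include 0.

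Control cells were then compared between the settings, to describe the level of each gene without knockdown. All 10 transporters were called between shLuci cells in culture and in vivo, 8 of them higher in culture and 2 lower, while 74.2% of all genes were called, 37.1% higher and 37.1% lower. Culture and in vivo libraries did not overlap for 9 of these 10 transporters (7 higher and 2 lower), and for 74.9% of all genes (37.8% higher and 37.2% lower). The comparison shares its shLuci libraries with the knockdown comparisons above. In shLuci cells, summed B cell markers had 85.1 to 107 CPM in culture against 878 to 2331 CPM in vivo. Monocyte and granulocyte markers (165 to 242 against 1794 to 2235) and erythroid markers (13.1 to 16.5 against 109 to 176 CPM) were lower too. Called lower were 5 of 5 B cell, 5 of 8 monocyte and granulocyte and 8 of 9 erythroid markers tested. In each of the last 2 lists 1 marker was called higher. Megakaryocyte markers had higher sums (583 to 680 against 245 to 311 CPM, 2 of 5 called higher). So had stroma and endothelium markers (181 to 257 against 105 to 162 CPM), with 3 of 4 tested called higher and 1, *Cxcl12*, lower. LSK and stem cell markers had lower sums (3187 to 3507 against 4556 to 4798 CPM, 5 of 11 called lower and 3 higher). Of 6 mast cell and basophil markers 5 were called lower and 1 higher. Of 12 mitosis genes 7 were called lower and 5 higher. Their part in the transporter values was not tested. *Slc7a11* was 49.1-fold higher in culture (log2 difference 5.62 ± 0.49), a value that rests on 7, 28 and 7 counts in vivo and was 6.68 on the log2 scale without shLuci in vivo replicate 2. *Slc1a4* was 14.2-fold (3.83 ± 0.29), *Slc6a9* 13.6-fold (3.77 ± 0.32) and *Slc7a1* 4.31-fold (2.11 ± 0.12) higher in culture, and the adjusted p-values of these 3 and *Slc7a11* lay between 9.41e-10 and 8.41e-08. They were the 4 least abundant transporters in vivo per length of transcript. *Slc38a1* was 1.93-fold and *Slc38a2* 1.63-fold higher in culture (adjusted p = 6.28e-09 and 0.000261).

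The subunits of LAT1 differed little between control cells. *Slc7a5* was 1.34-fold higher in culture with overlapping libraries (adjusted p = 0.0191), and *Slc3a2* was 1.20-fold higher (adjusted p = 0.00546). Scaling by upper quartile or by library size moved the median of all genes by -0.12 or -0.17 on the log2 scale, and under both the adjusted p of *Slc7a5* (0.0812 and 0.151) and *Slc3a2* (0.0909 and 0.295) passed 0.05. The *Slc7a5* call was also lost without shLuci culture replicate 1 or 2 or shLuci in vivo replicate 3 (adjusted p = 0.0795, 0.0857 and 0.0790). *Slc43a1* was 2.07-fold lower in culture (log2 difference -1.05 ± 0.11, adjusted p = 4.95e-07) and *Slc1a5* was 1.19-fold lower (-0.25 ± 0.07, adjusted p = 0.00696).

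**Figure D3:**
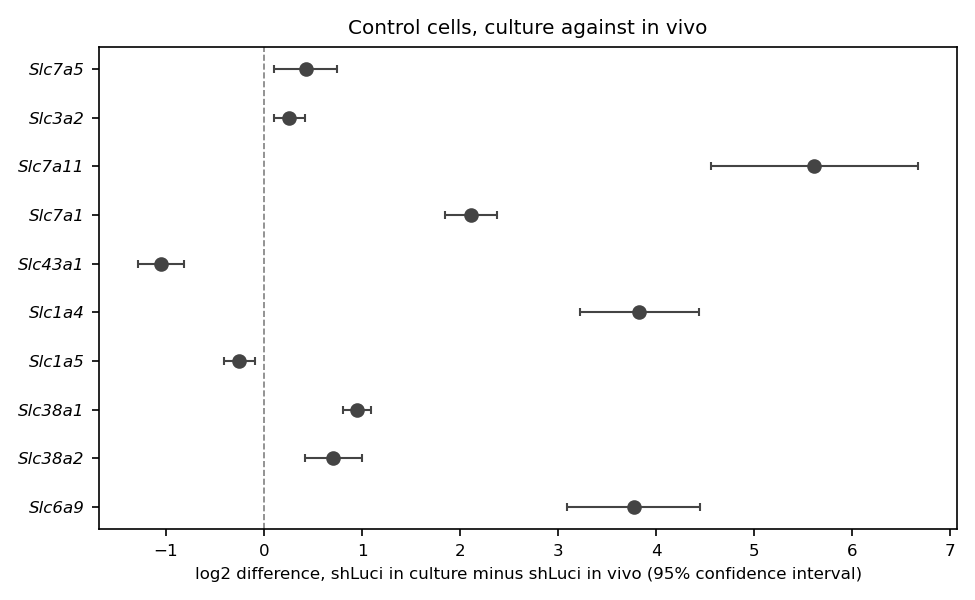
Log2 difference between shLuci cells in culture and shLuci cells in vivo (x axis; positive values are higher in culture) for the 10 genes, with 95% confidence intervals. *Slc7a11* at 5.62 is the farthest to the right, and *Slc43a1* at -1.05 and *Slc1a5* at -0.25 lie left of 0.

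To compare levels between genes, CPM was divided by the exonic length of each gene in kb. In shLuci cells in culture, *Slc1a5* (68.8 ± 3.32 CPM per kb), *Slc38a2* (66.3 ± 11.4), *Slc3a2* (57.8 ± 4.14) and *Slc7a5* (49.1 ± 10.7) were the most abundant, and each of these overlapped the next in its libraries. *Slc38a1* (21.1 ± 0.522) was clear of both its neighbors in the order. *Slc7a1* (13.7 ± 1.82) overlapped *Slc1a4* (10.4 ± 1.45), and *Slc43a1* (5.88 ± 0.90), *Slc6a9* (4.24 ± 1.58) and *Slc7a11* (2.33 ± 0.835) closed the order with overlap between neighbors. In shRad21 cells in culture, *Slc7a5* (25.0 ± 4.84) had come down to the level of *Slc38a1* (22.3 ± 1.05), whose libraries overlapped it, and *Slc3a2* (44.4 ± 2.31) was above both without overlap.

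In shLuci cells in vivo the order began with *Slc1a5* (81.9 ± 3.55 CPM per kb), *Slc3a2* (48.2 ± 2.97), *Slc38a2* (40.6 ± 2.40) and *Slc7a5* (36.5 ± 3.54), of which only the last 2 overlapped. *Slc43a1* (12.2 ± 0.132) was above *Slc38a1* (10.9 ± 0.468), while in culture it had been below it. *Slc7a1* (3.17 ± 0.281), *Slc1a4* (0.731 ± 0.241), *Slc6a9* (0.311 ± 0.0163) and *Slc7a11* (0.0487 ± 0.0457) followed without overlap between neighbors. The order of the 10 genes in shRad21 cells in vivo was the same as in shLuci cells in vivo. Exonic length includes the exons of all isoforms, so that a gene with a long, rarely used exon is placed too low.

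Other plasma membrane amino acid transporters are of interest beside these 10. Of 24 listed, 13 passed the filter in culture, and 4 were called lower and 1 higher there (median log2 fold change -0.31), with 2 called lower without shRad21 culture replicate 1 or 2. Over all genes tested in culture, 8.06% were called lower and 6.18% higher. *Slc7a3*, which encodes the arginine and lysine carrier CAT3, had between 3.50 and 6.06 CPM in shLuci and between 0.412 and 1.52 CPM in shRad21 libraries, a log2 difference of -2.61 (adjusted p = 0.00167). *Slc16a10*, a carrier of aromatic amino acids, fell by 0.69 (adjusted p = 0.00435). *Slc7a8*, which encodes LAT2, the alternative light chain of SLC3A2 for large neutral amino acids, rose by 0.95 (adjusted p = 0.00552), from between 27.8 and 44.4 CPM to between 54.2 and 85.1 CPM. In vivo, 13 were tested, and *Slc43a2* (LAT4) fell by 0.75 (adjusted p = 0.00507) while *Slc7a7*, a light chain of SLC3A2 that exports cationic amino acids, rose by 0.87 (adjusted p = 0.012).

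ATF4 and its targets that are not transporters were counted as a list of 25 genes, of which 24 passed the filter in culture. In culture 18 of these were called lower and 1 higher, beside 8.06% and 6.18% of all genes tested, with a median log2 fold change of -0.52. *Atf3*, a stress-induced transcription factor, fell by 2.75 (adjusted p = 0.00408), *Chac1*, which degrades glutathione, by 2.43 (adjusted p = 0.0011), and *Pycr1*, an enzyme of proline synthesis, by 2.12 (adjusted p = 0.000643). The gene that rose was *Nupr1*, a stress-induced chromatin protein (log2 fold change 1.20, adjusted p = 0.0031, named after its value was seen). In vivo, 20 passed the filter, none was called lower and 3 were called higher, which were *Nupr1* (2.20, adjusted p = 2.45e-05), *Trib3* (0.72, adjusted p = 0.0341) and *Asns* (0.62, adjusted p = 0.0121). Of all genes tested in vivo, 5.32% were called lower and 5.65% higher. In vivo, 3 of the 20 were lower at an unadjusted p under 0.05 and 2 by DESeq2, and 1 was called higher without shRad21 in vivo replicate 3. *Asns*, asparagine synthetase, had the largest called difference between settings in the list (-2.23 ± 0.34, adjusted p = 0.00186). In that test, 8 of the 25 genes were called lower and none higher, beside 3.03% and 1.64% of all genes tested. None of the 25 was higher at an unadjusted p under 0.05 or by DESeq2 either. That count was 5 without shLuci culture replicate 2 or shRad21 culture replicate 1 and 14 without shLuci culture replicate 3. The element TTGCATCA was present in 5 of the 23 genes of this list with a promoter window, beside 1.03% of all 27025 genes with one. These were *Atf3*, *Chac1*, *Pycr1* and *Vldlr*, which were called lower in culture, and *Nupr1*, which was called higher. The list was made of ATF4 and its targets, and ATF4 is known to bind this element. A higher share than over all genes is thus built into the list and is no result of these libraries.

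Cytosolic aminoacyl-tRNA synthetases, which load amino acids onto tRNAs, were all tested in culture. There, 9 of 20 were called lower and none higher (median log2 fold change -0.35), beside 8.06% and 6.18% of all genes tested. None of the 20 was higher by DESeq2 or at an unadjusted p under 0.05. The count of 9 was 5 without shLuci culture replicate 2 or shRad21 culture replicate 1 and 4 without shRad21 culture replicate 3. *Cars*, the cysteine enzyme, fell the furthest (-0.95 ± 0.14, adjusted p = 0.00142). In vivo, 1 of the 20, *Farsa*, was called lower and none higher (1 higher at an unadjusted p under 0.05, and none by DESeq2), beside 5.32% and 5.65% of all genes tested. The element TTGCATCA was present in 4 of 13 synthetase genes with a window, *Aars*, *Iars*, *Tars* and *Yars*.

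The counts of the remaining lists stand beside 14.2% of all genes called in culture and 11.0% in vivo, and differences between lists were not tested. Lists can share genes. *Chac1*, *Gpt2* and *Sesn2*, named below, are also in the ATF4 list, and their calls in culture were counted there too. None of 13 lysosomal and mitochondrial carriers was called in culture (1 higher at an unadjusted p under 0.05, none by DESeq2, and 2 higher without shLuci culture replicate 3), with a median log2 fold change of -0.01. *Slc25a12*, a mitochondrial aspartate and glutamate carrier, was the 1 called in vivo (-0.45, adjusted p = 0.00613). Among 23 genes of mTORC1 and its amino acid sensors, 2 were called lower in culture (*Castor1* and *Sesn2*, the arginine and leucine sensors of the pathway) and 1 higher (*Rragb*). None was called in vivo, where 1 was lower and 1 higher at an unadjusted p under 0.05 and none was called by DESeq2. Of 12 glutathione and NRF2 target genes, *Chac1* was the 1 called in culture, and *Srxn1* (1.11, adjusted p = 0.000498) and *Nfe2l2* (0.25, adjusted p = 0.0481) were called higher in vivo. Of 11 enzymes of glutamine and glutamate metabolism, *Gpt2* was the 1 called in culture (-1.47, adjusted p = 0.0017) and none was called in vivo. None of 6 eIF2alpha kinases and phosphatase subunits was called in culture. These counts of none were the same at an unadjusted p under 0.05 and by DESeq2. *Ppp1r15a*, a phosphatase subunit, was called higher in vivo (0.98, adjusted p = 0.000363). Of 8 genes of the Myc family, 2 were called lower in culture, *Mxd1* (-1.20, adjusted p = 3.07e-05) and *Myc* (-1.11, adjusted p = 3.18e-05), and 1 higher, *Mxd4* (0.35, adjusted p = 0.0295). In vivo, 1 was called lower, *Mycl* (-2.12, adjusted p = 0.0306), and 2 higher, *Mycn* (1.18, adjusted p = 0.000189) and *Max* (0.35, adjusted p = 0.0423).

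**Figure D4:**
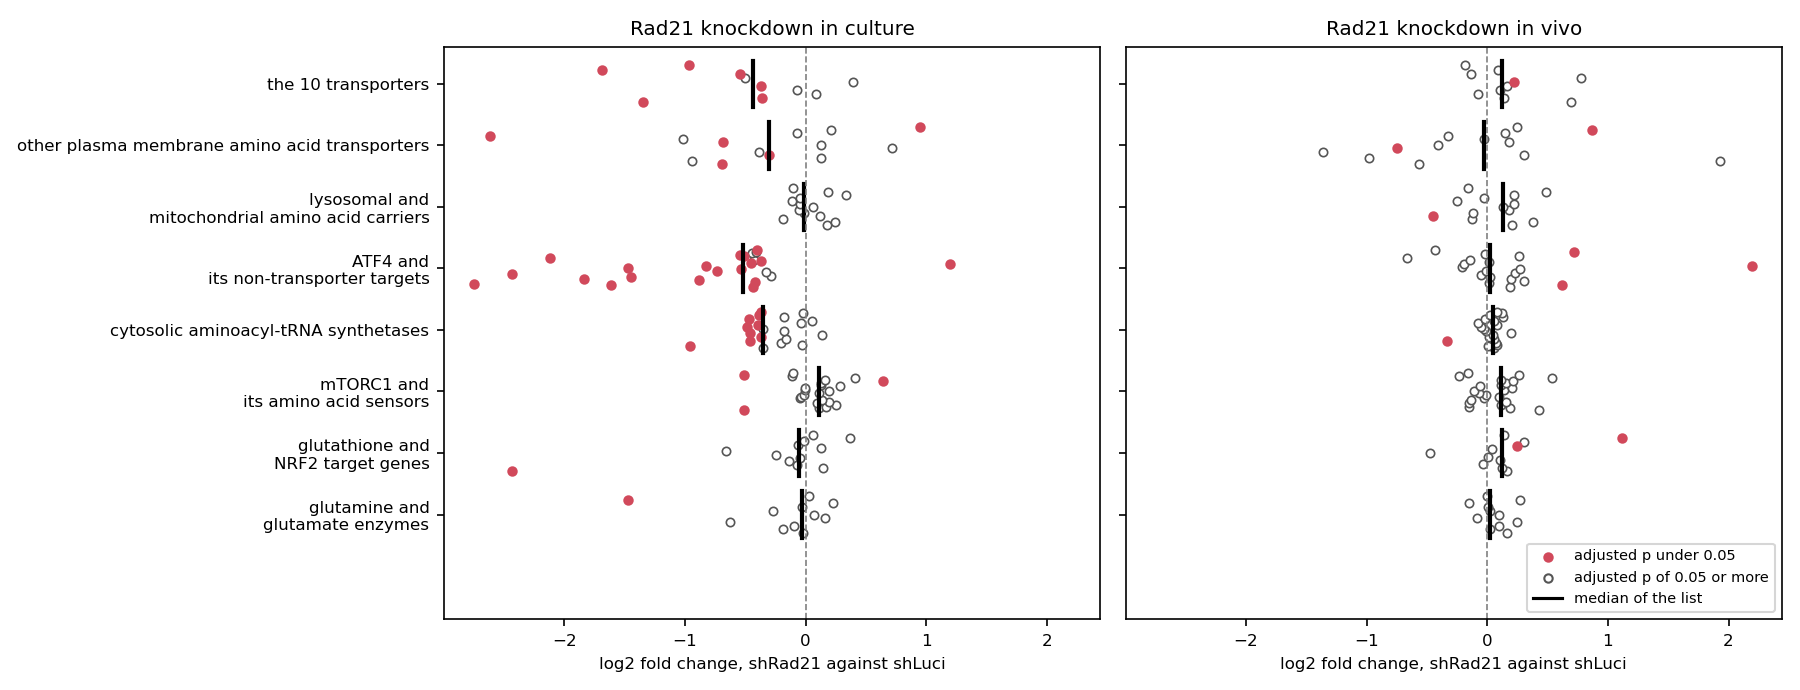
Log2 fold change of shRad21 against shLuci cells (x axis) for the genes of 8 lists that passed the filter, in culture (left) and in vivo (right). Each point is a gene, red where the adjusted p was under 0.05, and vertical lines mark the median of each list. In culture the median of the ATF4 list is at -0.52 and that of the synthetases at -0.35, and in vivo they are at 0.02 and 0.05.

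Markers of other cell types and of division moved in the same comparisons, and their part in the transporter values was not tested. Over all genes tested, 8.06% were called lower and 6.18% higher in culture, and 5.32% lower and 5.65% higher in vivo. In culture, 4 of the 5 monocyte and granulocyte markers tested were called lower, although their summed level was between 165 and 242 CPM in shLuci and between 160.1 and 169.7 CPM in shRad21 libraries. Of the LSK and stem cell markers, 6 of 11 were called higher and 2 lower, and of 5 megakaryocyte markers 3 were called higher and 2 lower. None of 12 mitosis genes was called in culture (2 lower at an unadjusted p under 0.05, none by DESeq2). In vivo, 11 of the 12 mitosis genes were called lower, with a sum between 1830.0 and 2034 CPM in shLuci and between 1260.3 and 1520.3 CPM in shRad21 libraries. That count was 7 without shRad21 in vivo replicate 1 and 5 without shRad21 in vivo replicate 3. Erythroid markers (4 of 9 lower, sum 109 to 176 against 68.9 to 93.0 CPM), monocyte and granulocyte markers (4 of 8 lower, sum 1794 to 2235 against 1487 to 1610.0 CPM) and megakaryocyte markers (3 of 5 higher, sum 245 to 311 against 453 to 607 CPM) moved in vivo as well. Of the LSK and stem cell markers in vivo, 6 of 11 were called higher and 3 lower. B cell markers (2 of 5 lower), mast cell and basophil markers (2 of 6 higher) and stroma and endothelium markers (1 of 2 lower) were called there too. In a bulk sample, fewer cells of a type and less RNA per cell cannot be told apart.

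The gene whose pattern was most like each transporter was looked for among 17040 others, as the Pearson correlation of log2 CPM over the 12 libraries after the mean of each setting had been subtracted. These libraries share the knockdown groups and the settings, so that the values are a description. *Slc43a1* was closest to *Ctsw* (0.987), *Slc3a2* to *Rhob* (0.966), *Slc7a1* to *Prmt7* (0.959), *Slc6a9* to *Ndrg2* (0.958), *Slc1a5* to *Cox17* (0.957), *Slc7a5* to *Arap2* (0.955), *Slc1a4* to *Acat2* (0.951) and *Slc7a11* to *Slc7a3* (0.946). *Slc38a1* was closest to *Rbl1* (0.916), and *Slc38a2* to *1110002L01Rik* at a lower value (0.862).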

How the data were processed

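RNA-seq libraries of 12 samples in 4 groups of 3 were analysed. According to the labels and the study's methods, the authors made libraries with TruSeq RNA v2 (culture) or SMART-Seq v4 and Nextera XT (in vivo), removed rRNA reads, trimmed the reads, mapped them to GRCm38 with TopHat2 (2.0.11) and counted them on genes with HTSeq (0.6.1). The deposited values are raw counts per gene, whole numbers without normalization. The strand setting of the counting is not given in the sources used here. Counts were used as deposited, and identifiers were matched to GENCODE M21 (45229 of 46078 genes).

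Lowly counted genes were removed with filterByExpr (minimum count 10, minimum total count 15). The rest were scaled with TMM and tested with edgeR's quasi-likelihood test (edgeR 4.0.16, R 4.3.3), two-sided, with Benjamini-Hochberg adjustment over all genes tested and a threshold of 0.05. The knockdown was tested within each setting on its 6 libraries, and control cells and the interaction in 1 model of all 12. The scripts were tested on simulated counts. Samples were grouped by their labels. Alternatives were DESeq2 1.42.0, other scalings, other filters, the replicate number as a block, the other choice of libraries in the fit, and leaving out each library. In culture, same-numbered libraries deviated together from their group means (r between 0.241 and 0.278, other pairs between -0.332 and 0.0586). The numbers may thus pair these samples, as judged from the data and not from a label. What same-numbered libraries share is not given in the labels. Chi-square per degree of freedom between libraries of 1 group was 6.16 to 22.6, so replicate spread and not depth sets the precision of abundant genes.

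The 10 genes and all lists were chosen with earlier results of these data known. Named are the 10 genes, *Rad21*, in each other list up to 3 called genes of the largest change per comparison, marker genes where a list moved, and for each of the 10 the gene most like it in pattern (pseudocount 0.5 CPM).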

Additional observations from a re-analysis of the deposited data

Results flagged for a closer look

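The knockdown effect differed between culture and in vivo for 3 of the 10 transporters by the interaction of knockdown and setting (edgeR's quasi-likelihood test over all 12 libraries, two-sided). Of all 17050 genes tested, 4.67% were called, 3.03% lower and 1.64% higher. The 10 genes were chosen with results of these libraries in view, so the count is a description. Among the transporters, the log2 fold change in culture minus that in vivo was -2.04 for *Slc1a4*, -0.53 for *Slc3a2* and -0.49 for *Slc1a5*. For each of these, all 3 shRad21 libraries in culture were below all 3 shLuci libraries, and in vivo 2 of 3 shRad21 libraries were above all shLuci libraries. Culture and in vivo libraries were made with different kits and gates, so the setting cannot be told apart from either.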

How the results depend on the processing

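Of 627 values of single transporters under the alternatives, 579 kept their direction and their side of the threshold, 22 lost the call, 20 passed it anew and 6 turned in direction. *Slc7a5*, *Slc7a11* and *Slc1a4* in culture were called in all 13 alternatives. The values that turned belong to uncalled genes near 0 when a library was left out, *Slc38a2* in culture (-0.207 to 0.0799), *Slc38a2* in vivo (-0.0237 to 0.211) and *Slc7a11* in vivo (-0.27 to 1.19). With libraries left out in turn, genes called numbered between 1352 and 2817 in culture (2213 with all libraries), between 951 and 1562 in vivo (1749) and between 492 and 845 for the interaction (796), with fewer samples in each fit. Leaving out libraries gave between 4 and 6 transporters called lower and between 0 and 1 called higher in culture, between 0 and 1 called lower and 0 called higher in vivo, and between 3 and 4 called lower for the interaction. In culture, 1 transporter (*Slc43a1*) was called higher with DESeq2, without a filter and in 1 model of all 12 libraries. In vivo, 0 were called higher with at least 10 counts in every library and in 1 model of all 12 libraries, and 2829 genes were called without a filter. For the interaction, 1294 genes and 5 transporters were called with DESeq2, and 1409 genes and 6 transporters without a filter, all these transporters lower in culture. The cause of these shifts was not tested.

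With the replicate block, 7 transporters were called lower and 1 higher in culture (3186 genes in all), 0 higher in vivo (*Slc43a1*, adjusted p = 0.0823, and 1678 genes), and 6 lower for the interaction (991 genes). In vivo, the same-numbered libraries correlated at between 0.0181 and 0.0823 and share only a number. The block changed no call of a transporter between control cells, and 12653 genes were called there. Counts were low in vivo for *Slc7a11* (7 to 28 per library), *Slc6a9* (30 to 65) and *Slc1a4* (40 to 134).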
